A study of Mus musculus with 4 samples.

Results

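Microglia are the resident immune cells of the brain. A strict rule kept 1362 of the 78728 nuclei in single-nucleus RNA-seq libraries of brain tissue labelled cortex or striatum as microglia. The paper's own clustering assigned more of these nuclei to microglia. The members were chosen by their own counts of unique molecular identifiers (UMIs), each UMI standing for 1 captured RNA molecule. A nucleus was taken where its UMIs of 6 genes of resting microglia, Csf1r, P2ry12, Tmem119, Siglech, Inpp5d and Selplg, summed to at least 4. It was left out where it held more than 1 UMI of border macrophage genes (Mrc1, F13a1 and Cd163), of neutrophil genes (S100a8 and S100a9), of neuron genes (Rbfox3, Slc17a7, Slc17a6, Gad1 and Gad2) or of Mog, Aqp4 and Cldn5, which mark oligodendrocytes, astrocytes and endothelium. The levels of those genes are therefore a description and not a finding.

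The study asked what delivery of vascular endothelial growth factor C (VEGF-C), a growth factor of lymphatic vessels, changes in the mouse brain. Male C57BL/6J mice were given an adeno-associated virus into the cisterna magna at 4 weeks of age, and their brains were collected at 8 weeks. AAV-VEGF-C encoded full-length murine VEGF-C, whereas AAV-CTRL encoded VEGFR-3 immunoglobulin domains that bind no ligand, fused to an antibody tail, so that both groups carried AAV9 and a secreted protein. Frozen tissue of 5 mice per virus was pooled, and 1 library was made per group, with both region labels of a virus drawn from the same animals. No difference below has a replicate check. Each describes a pair of libraries, and the virus cannot be told apart from the pool or the library.

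Microglia survey the tissue with motile processes, take up debris and synapses, and supply most of the complement component C1q in the brain. Their identity is kept by the transcription factor PU.1 together with Sall1 and Irf8, by signals through the colony stimulating factor receptor Csf1r and by transforming growth factor beta. On injury or disease they lower the genes of this resting, homeostatic state and raise genes of antigen presentation, lipid handling and lysosomes.

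Values of the libraries are given below with the cortex label before the striatum label and, within a label, AAV-CTRL before AAV-VEGF-C. The libraries held 17168, 20370, 23724 and 17466 nuclei. Members numbered 328, 378, 313 and 343, and their summed counts were 522701, 582311, 539474 and 655160 UMIs. Levels are UMIs per 1000000 UMIs of these members in a library (CPM). Ratios are on the log2 scale, with a 95% counting interval in parentheses that covers counting error only. Ppp1r1b, an abundant gene of striatal projection neurons, went against the region labels, at 62.2 and 74.1 CPM in all other nuclei under the cortex label and 18.2 and 18.1 CPM under the striatum label. Neurod6, a transcription factor of cortical excitatory neurons, went with them, at 62.8 and 64.2 CPM against 5.84 and 3.07 CPM. The names cortex and striatum below are the labels and not a checked anatomy. Pairs of libraries shared 598 barcodes, of which none was a member in both, and 23 member barcodes were present in another library.

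The rule genes are given first as a description, since their excess follows from the choice of members. P2ry12, a purine receptor that steers microglial processes, gave 941, 979, 912 and 881 CPM against 38.2 to 47.8 CPM in all other nuclei, and Tmem119, a surface marker of microglia, gave 524, 696, 486 and 507 CPM against 7.46 to 10.1 CPM. Of 33 homeostatic genes that the rule did not use, 32 reached 40 UMIs over all members, and 28 of these were at least 4-fold higher in microglia than in all other nuclei of the same library in each of the 4 libraries. Over all 9386 genes with 40 UMIs, 549 (5.85%) were that much higher and 64 (0.682%) were at least 4-fold lower. These comparisons follow from how the members were chosen and carry no test. Cx3cr1, the fractalkine receptor through which neurons signal to microglia, gave 1366, 1530, 1364 and 1568 CPM and was seen in 86.7% of members, against 7.75% of all other nuclei. It was present at a like level under every label. Sall1, a transcriptional repressor that keeps microglial identity, gave 182, 142, 193 and 206 CPM and was at least 18.1-fold above all other nuclei in every library. Gpr34, a lipid receptor, gave 323, 407, 310 and 360 CPM and was at least 42.5-fold above them. The 4 homeostatic genes that did not reach 4-fold in every library were Bin1, Adgrg1, Sparc and Fscn1, which other brain cells use as well.

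**Figure D1:**
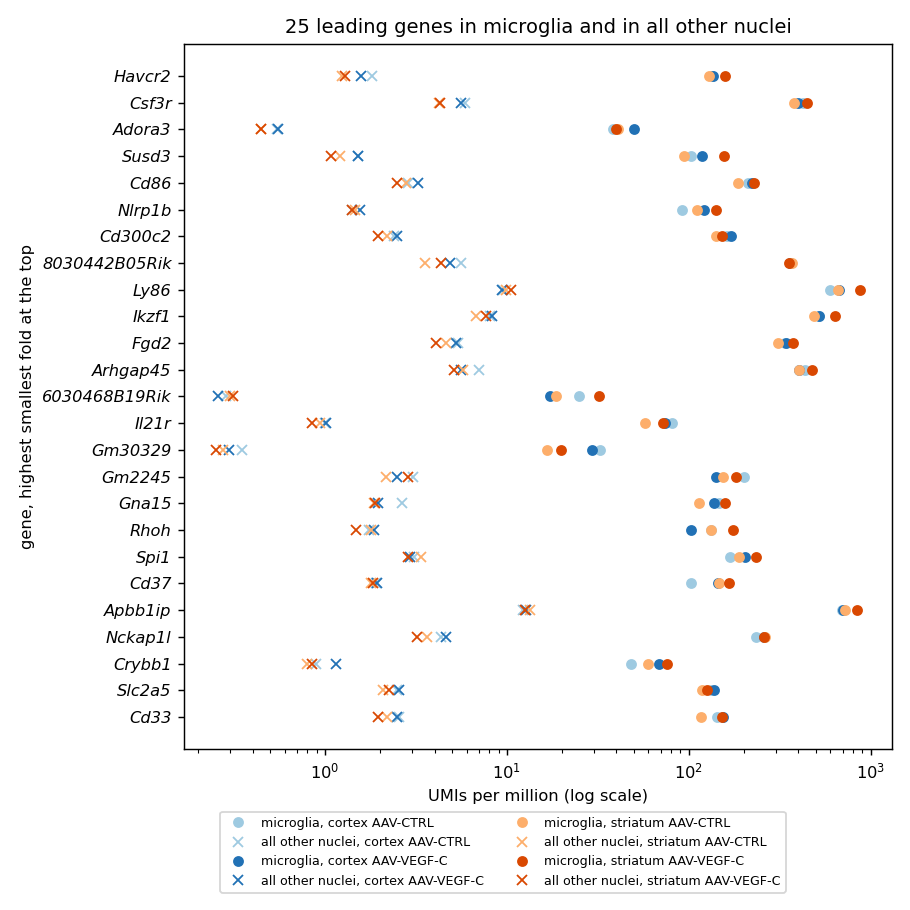
Levels in CPM (log axis) of the 25 genes with the largest smallest fold over all other nuclei, for microglia (points) and all other nuclei (crosses) in each of the 4 libraries. The clouds of points and crosses do not overlap for any of the 25 genes, from Havcr2 at the top to Cd33.

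The genes that set microglia apart most from all other nuclei were receptors and signalling genes of myeloid cells. Ranked by the smallest of the 4 folds and leaving out the genes of the rule, they were led by Havcr2, an inhibitory checkpoint receptor, at 134, 136, 130 and 159 CPM in microglia, and its smallest fold over all other nuclei was 74.2. Csf3r, the receptor of granulocyte colony stimulating factor, followed at 427, 400, 380 and 447 CPM. Adora3, an adenosine receptor, gave 38.3, 49.8, 40.8 and 39.7 CPM and at most 0.553 CPM in all other nuclei. Each of these receptors lay at a like level in the 4 libraries. Susd3, Cd86 (a co-stimulatory ligand for T cells), Nlrp1b (an inflammasome sensor), Cd300c2, the long noncoding 8030442B05Rik, Ly86 (a partner of a Toll-like receptor relative) and Ikzf1 (the transcription factor Ikaros) completed the first 10. Fgd2, an activator of the small GTPase Cdc42, Arhgap45, 6030468B19Rik, Il21r, Gm30329, Gm2245, Gna15 (a G protein subunit), Rhoh (a haematopoietic small GTPase), Spi1, Cd37 (a tetraspanin of leukocytes), Apbb1ip (an adaptor of integrin activation), Nckap1l (a subunit of an actin-regulating complex), Crybb1, Slc2a5 (a fructose transporter) and Cd33 (a sialic acid receptor) made up the rest, with smallest folds down to 53.3. Gm30329 and Gm2245 are antisense genes whose reads cannot be told from those of the opposite strand unless the counting used strand. Spi1, which encodes PU.1, lies at chr2:91082390-91115756 (GRCm38, plus strand) and gave 168, 204, 189 and 234 CPM. It was 54.6-fold or more above all other nuclei. The ranking did not compare microglia with border macrophages alone. Over the libraries together, Cd86 gave 214 CPM in microglia and 229 CPM in border macrophages. Csf3r gave 415 and 88.4 CPM, and Ikzf1 543 and 239 CPM.

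Promoter windows of the leading genes are shown because PU.1 is the factor that marks this lineage and its own gene is among them. The windows run from 250 bases before to 50 bases after each RefSeq start site (GRCm38.p6). The letters searched were GAGGAAGT, a PU.1 site, on either strand. They were found in 1052 of 32851 windows of all genes (3.20%), in 297 of 9688 windows of the genes measured here (3.07%), in 56 of 546 windows of genes at least 4-fold over all other nuclei (10.3%) and in 6 of 25 windows of the leading genes (24.0%), of which 21 genes had a window. The pattern GGAANNGAA, bound by ETS and IRF factors together, was in 8.24% of all windows, 7.28% of windows of measured genes, 8.79% of windows of the 4-fold genes and none of the 25. The first 4 leading genes by rank that held GAGGAAGT are printed on the strand of the gene, with the match in capitals. Havcr2 (chr11:46454681-46454980, plus strand) and Nlrp1b (chr11:71230684-71230983, minus strand) held it in the direction of the gene. Adora3 (chr3:105904171-105904470, plus strand) and Fgd2 (chr17:29360664-29360963, plus strand) held its reverse complement, ACTTCCTC. A match is a run of letters and not a bound site.
Havcr2: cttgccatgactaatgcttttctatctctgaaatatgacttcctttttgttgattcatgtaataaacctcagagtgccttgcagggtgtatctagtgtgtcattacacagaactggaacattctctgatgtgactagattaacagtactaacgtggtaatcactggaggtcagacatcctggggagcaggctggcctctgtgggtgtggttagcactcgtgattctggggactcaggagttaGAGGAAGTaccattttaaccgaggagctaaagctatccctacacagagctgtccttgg
Adora3: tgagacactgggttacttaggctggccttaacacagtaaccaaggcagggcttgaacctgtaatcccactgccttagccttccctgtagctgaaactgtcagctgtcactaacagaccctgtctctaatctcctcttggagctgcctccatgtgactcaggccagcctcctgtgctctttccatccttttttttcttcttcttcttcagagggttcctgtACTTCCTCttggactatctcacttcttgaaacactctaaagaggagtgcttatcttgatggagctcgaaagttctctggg
Nlrp1b: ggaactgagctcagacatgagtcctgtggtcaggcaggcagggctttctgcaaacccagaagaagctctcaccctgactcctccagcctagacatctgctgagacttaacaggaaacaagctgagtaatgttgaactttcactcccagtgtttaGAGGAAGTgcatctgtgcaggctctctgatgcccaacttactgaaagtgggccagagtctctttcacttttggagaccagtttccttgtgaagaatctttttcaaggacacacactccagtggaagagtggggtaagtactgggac
Fgd2: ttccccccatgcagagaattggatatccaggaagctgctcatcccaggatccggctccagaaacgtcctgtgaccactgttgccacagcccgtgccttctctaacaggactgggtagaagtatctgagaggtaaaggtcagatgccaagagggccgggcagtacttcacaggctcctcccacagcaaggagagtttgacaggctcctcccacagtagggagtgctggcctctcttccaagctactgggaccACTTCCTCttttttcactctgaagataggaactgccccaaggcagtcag

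Counted from the start site, the match began at -8 in Havcr2, -30 in Adora3, -96 in Nlrp1b and 1 in Fgd2. Cd37 and Apbb1ip held the other matches among the leading genes.

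Other transcription factors of the lineage were set apart from all other nuclei as well. Of the 20 listed genes, 19 reached 40 UMIs and 11 were at least 4-fold over all other nuclei in each library. Irf8, a partner of PU.1, gave 132, 143, 172 and 145 CPM, and Runx1, a factor of blood and microglial development, gave 534, 477, 525 and 650 CPM. Mef2c was abundant, at 2026, 2026, 1012 and 1191 CPM, but reached only 1.84-fold over all other nuclei in its lowest library, and neurons express it too. All 8 measured complement genes were at least 4-fold higher in every library, as were 11 of 16 inflammatory genes, 14 of 22 TGF-beta and cytokine receptor genes, 7 of 10 purinergic genes and 11 of 26 lysosome and phagocytosis genes. Of 17 genes of the disease-associated state 4 were, namely Trem2, Tyrobp, Ctsd and Ctsz, against 5.85% of all genes. Apoe, a lipid carrier that astrocytes make in quantity, gave 302, 321, 426 and 258 CPM in microglia against 453 CPM over all other nuclei. Of 39 measured oxidative phosphorylation genes and 12 measured immediate early and stress genes, none was 4-fold higher in all libraries. The lineage factors summed to 7836, 7747, 6940 and 7723 CPM in microglia and 6938, 8175, 7427 and 7821 CPM in border macrophages. Complement genes gave 2925, 3534, 2514 and 2900 CPM and 2609, 3223, 3374 and 2324 CPM. Over the libraries together Runx1 was lower in microglia, at 551 and 733 CPM, and Irf8 higher, at 148 and 52.0 CPM.

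Microglia held fewer UMIs and fewer detected genes than other nuclei, but more genes at equal UMIs. Their median was 1475.5, 1457, 1466 and 1841 UMIs per nucleus, against 2701.5, 2961, 2297 and 2694 UMIs in all other nuclei. Their median number of genes was 1159.5, 1145.5, 1163 and 1391, against 1663, 1782, 1508 and 1713. With all nuclei thinned to 1000 UMIs each, and 13, 14, 21 and 5 shallower members dropped, microglia had a median of 830, 829, 832 and 829 genes and other nuclei 740, 743, 761 and 764. The striatum AAV-VEGF-C members were the deepest. They also held the most UMIs of the rule genes, with 60.6% at 10 or more against 38.7%, 41.0% and 36.7% in the other libraries.

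Signs of division were not detectable at this depth. Mki67 and Top2a, genes of dividing cells, gave 0, 0, 0 and 2 UMIs, and no member had 2 or more. With 0 such nuclei, shares of nuclei with 2 or more of these UMIs of up to 0.915%, 0.794%, 0.958% and 0.875% remain possible, which sets no limit on dividing nuclei that show none.

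The rule left close neighbours outside. Of 2844 nuclei with at least 4 UMIs of the 6 genes, 47.9% were kept, and 1181 were left out for neuronal UMIs alone, 86 for the glial and endothelial genes alone and 47 for macrophage genes alone. Among nuclei that passed the limits on other cells, 96 had 3 rule UMIs and gave 6297 CPM of the 33 homeostatic genes, and 96 had 4 and gave 9553 CPM. Members with 10 or more gave 15666 CPM, and nuclei with 0 gave 1024 CPM. The level was higher at each step across the minimum, with no gap at it, as the plot of homeostatic genes by rule UMIs shows.

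**Figure D2:**
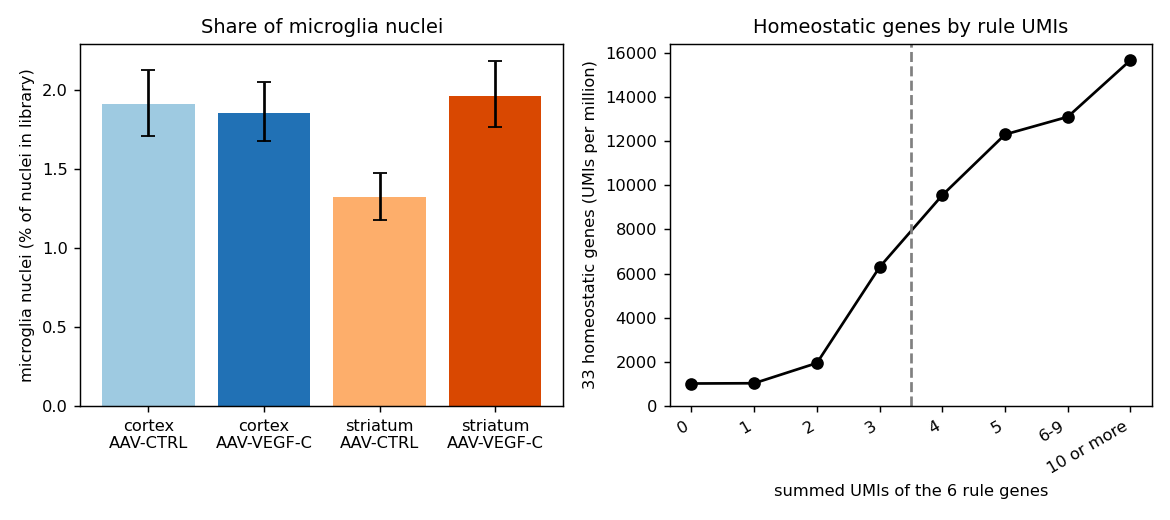
Left, share of nuclei in each library that the rule kept as microglia, in percent, with 95% Clopper-Pearson intervals. Striatum AAV-CTRL lies lowest at 1.32%. Right, summed level of 33 homeostatic genes in CPM by the UMIs of the 6 rule genes, among nuclei that passed the limits on other cells; the dashed line is the minimum of the rule, with 6297 CPM just below it and 9553 CPM just above.

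The share of nuclei that the rule kept as microglia was alike in 3 libraries and lower in the other one. It was 1.91% (1.71 to 2.13) and 1.86% (1.67 to 2.05) under the cortex label, and 1.32% (1.18 to 1.47) and 1.96% (1.76 to 2.18) under the striatum label, where the interval of AAV-CTRL did not overlap any other. The ratio of AAV-VEGF-C to AAV-CTRL was -0.04 (-0.26 to 0.18) under the cortex label and 0.57 (0.35 to 0.80) under the striatum label. The striatum over cortex ratio was -0.53 (-0.76 to -0.31) in AAV-CTRL and 0.08 (-0.13 to 0.30) in AAV-VEGF-C. Nuclei with at least 4 rule UMIs numbered 745, 881, 602 and 616 before the limits on other cells. Those limits kept 44.0%, 42.9%, 52.0% and 55.7% of them. More was thus lost under the cortex label, and the region ratios depend on the limits. With nuclei thinned to 1000 UMIs and a minimum of 2 rule UMIs, the AAV ratio under the striatum label was 0.50. Doublets, droplets that hold more than 1 nucleus, were called for 7.32%, 4.76%, 12.1% and 6.41% of members, and without them the ratio was 0.61.

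The summed homeostatic programme was alike between viruses under the cortex label and slightly higher in AAV-VEGF-C under the striatum label. Its 33 genes gave 13901, 13965, 13282 and 14804 CPM, against 702 to 866 CPM in all other nuclei. The ratio was 0.01 (-0.04 to 0.05) under the cortex label and 0.16 (0.11 to 0.20) under the striatum label. Without called doublets the latter was 0.065. Fcrls, a receptor found in mouse microglia, came nearest to 1.5-fold among the larger counts, at 0.56 (0.26 to 0.86) under the striatum label and 0.06 (-0.18 to 0.30) under the cortex label. Olfml3, another of these genes, lay almost as near under the cortex label, higher in AAV-VEGF-C on 143 and 234 UMIs. Single genes past 1.5-fold were few: 1 of 31 measured in the cortex comparison, Trem2, was higher and none lower, and none of 30 in the striatum comparison passed either way. Over all genes measured, 308 of 6272 (4.91%) were higher and 321 (5.12%) lower under the cortex label, and 373 of 6683 (5.58%) higher and 483 (7.23%) lower under the striatum label. The median over all genes was -0.01 and 0.02, and the median width of a gene's interval was 1.27 in each comparison.

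**Figure D3:**
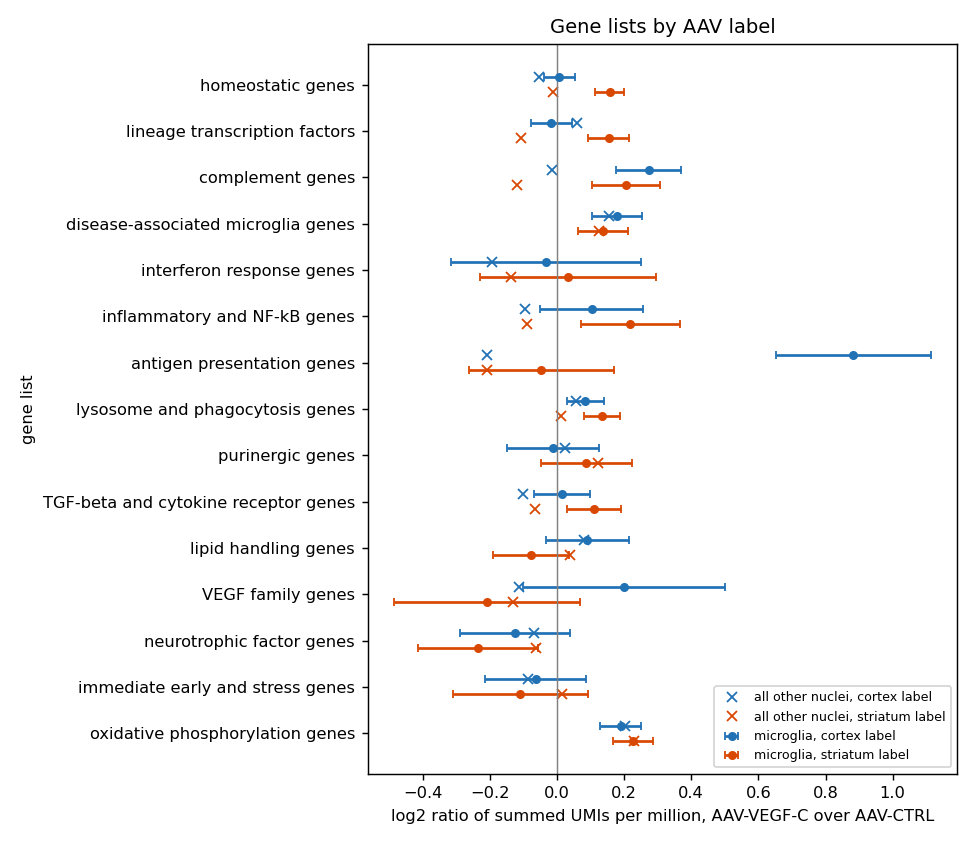
Log2 ratio of summed CPM, AAV-VEGF-C over AAV-CTRL, for 15 gene lists in microglia (points, with 95% counting intervals) and in all other nuclei (crosses), under the cortex label (blue) and the striatum label (orange). Complement genes lie above 0 in microglia under both labels, at 0.27 and 0.21, and antigen presentation genes lie at 0.88 under the cortex label and -0.05 under the striatum label.

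Complement genes were higher in AAV-VEGF-C microglia under both region labels. C1qa, C1qb and C1qc, the chains of C1q, lie side by side at chr4:136880129-136898803 (GRCm38, minus strand). C1qa gave 916, 1202, 714 and 890 CPM, and AAV-VEGF-C exceeded AAV-CTRL by 0.39 (0.22 to 0.56) and 0.32 (0.13 to 0.51) under the cortex and striatum labels. C1qb gave 672, 814, 576 and 658 CPM, and AAV-VEGF-C exceeded AAV-CTRL by 0.28 (0.08 to 0.48) and 0.19 (-0.02 to 0.41). C1qc gave 746, 874, 476 and 592 CPM, and AAV-VEGF-C exceeded AAV-CTRL by 0.23 (0.04 to 0.42) and 0.31 (0.08 to 0.55). All 3 chains were thus higher with AAV-VEGF-C in both comparisons, by less than 1.5-fold, and lower under the striatum label than under the cortex label with either virus. The 17 complement genes summed to 2925, 3534, 2514 and 2900 CPM, a difference of 0.27 (0.18 to 0.37) and 0.21 (0.11 to 0.31). In all other nuclei the ratios of the sum were -0.02 and -0.12, although C1qa alone was higher there with AAV-VEGF-C under both labels, as given in the next paragraph. Of 7 members measured in each comparison, Itgb2, an integrin chain of complement receptors, passed 1.5-fold upward under the cortex label (0.67) and C3ar1, a receptor of the C3a fragment, under the striatum label (0.72).

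Several other microglial genes lay higher in both comparisons. Trem2, the lipid-sensing receptor, gave 222, 335, 217 and 276 CPM, and AAV-VEGF-C exceeded AAV-CTRL by 0.59 (0.25 to 0.94) and 0.35 (0.01 to 0.70). Its signalling adaptor Tyrobp gave 172, 242, 100 and 172 CPM, and AAV-VEGF-C exceeded AAV-CTRL by 0.49 (0.10 to 0.89) and 0.78 (0.30 to 1.28). Laptm5, a lysosomal membrane protein of leukocytes, gave 679, 917, 549 and 710 CPM, and AAV-VEGF-C exceeded AAV-CTRL by 0.43 (0.24 to 0.63) and 0.37 (0.16 to 0.59). For each of these genes the AAV-VEGF-C library lay above its AAV-CTRL partner. In all other nuclei, where they were at least 21.5-fold lower, the ratios were 0.02 and 0.37 for Trem2, 0.11 and 0.25 for Tyrobp, 0.18 and 0.28 for Laptm5, and 0.16 and 0.23 for C1qa, so that under the striatum label they resembled those in microglia for Trem2, Laptm5 and C1qa. Ctss, a lysosomal protease, had ratios of 0.28 (0.04 to 0.52) and 0.33 (0.10 to 0.56). Fth1, the heavy chain of ferritin, which stores iron, had ratios of 0.27 (0.11 to 0.42) and 0.51 (0.34 to 0.68), but it moved alike in all other nuclei, at 0.36 and 0.41. The oxidative phosphorylation genes did so as well, with summed ratios of 0.19 and 0.23 in microglia and 0.20 and 0.23 in all other nuclei. Transcripts of neurons, found in microglia at 8307, 6974, 8097 and 7140 CPM over 14 marker genes, differed by -0.25 (-0.31 to -0.19) and -0.18 (-0.24 to -0.12) in microglia and -0.02 under both labels in all other nuclei. All 14 neuron markers had UMIs in members, and their part in the higher microglial genes was not tested.

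The antigen presentation genes were higher in AAV-VEGF-C under the cortex label, and most of this came from 4 nuclei. The 16 genes summed to 446, 821, 610 and 591 CPM, and the ratio was 0.88 (0.65 to 1.11) and -0.05 (-0.26 to 0.17). The class II genes among them encode the molecules that show peptides to helper T cells: H2-Aa, H2-Ab1 and H2-Eb1, which lie within chr17:34257689-34316674 (GRCm38), and Cd74, their invariant chain. H2-Aa gave 0, 30, 6 and 6 UMIs, H2-Ab1 0, 17, 8 and 4, H2-Eb1 0, 24, 5 and 5, and Cd74 2, 70, 18 and 21. With 0 set to 3 UMIs in the cortex AAV-CTRL library, H2-Aa, H2-Ab1 and H2-Eb1 were 8.98-fold, 5.09-fold and 7.18-fold higher in the cortex AAV-VEGF-C library. These folds leave out counting error. Cd74 had a ratio of 4.97 (3.07 to 8.05). In that library 134 of 141 class II UMIs sat in 4 of 378 nuclei, which held 64, 38, 23 and 9 of them. These 4 nuclei had 4, 4, 5 and 4 UMIs of the rule genes, at or next to the minimum, and 2608 CPM of the homeostatic genes, against 14117 CPM in the remaining members. Nuclei with 5 or more class II UMIs numbered 2 of 313 in striatum AAV-CTRL, 2 of 343 in striatum AAV-VEGF-C and none of 328 in cortex AAV-CTRL. Without all such nuclei, a choice made after the values were seen, the cortex ratio of the list was 0.37 and the levels were 446 and 574 CPM.

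**Figure D4:**
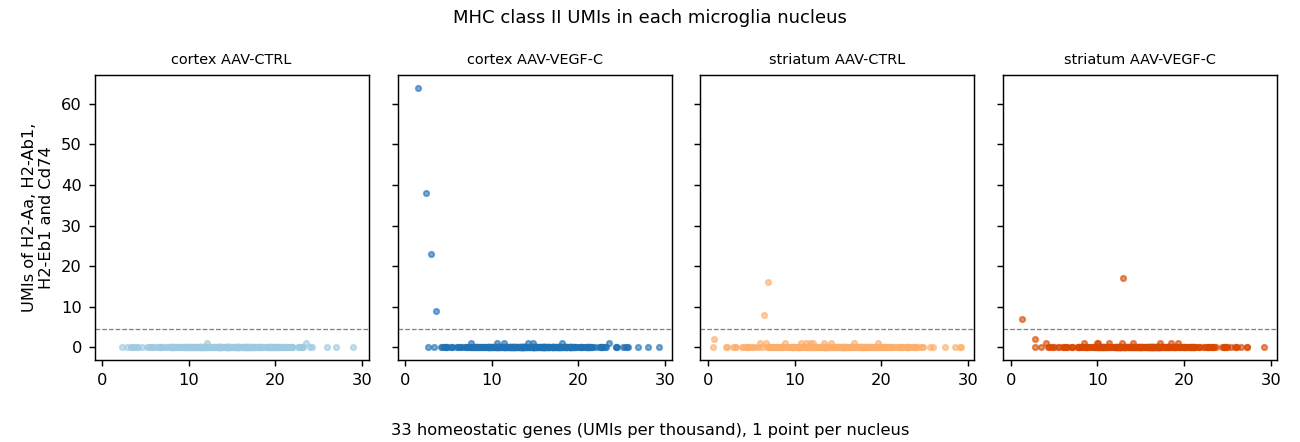
UMIs of H2-Aa, H2-Ab1, H2-Eb1 and Cd74 in each microglia nucleus, against its level of the 33 homeostatic genes in UMIs per 1000 UMIs, 1 panel per library. The dashed line separates nuclei with 5 or more class II UMIs, of which there were 0, 4, 2 and 2, and the 4 of cortex AAV-VEGF-C all lie at the low end of the homeostatic axis.

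The other genes of the list moved less. Without H2-Aa, H2-Ab1, H2-Eb1 and Cd74 the list gave 442, 579, 541 and 536 CPM. Tapbp gave 37, 60, 42 and 52 UMIs, and H2-DMa 3, 12, 15 and 14 UMIs. B2m, the light chain of class I molecules, had ratios of 0.48 (0.10 to 0.87) and -0.06 (-0.44 to 0.32), and H2-K1 and H2-D1, class I heavy chains, had cortex ratios of 0.24 (-0.46 to 0.95) and 0.01 (-0.82 to 0.85). H2-K1 and H2-D1 are near-identical in part, so that reads may have been split between them.

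Lists of activation genes differed in their ratios. The 34 interferon response genes were low, at 386, 378, 406 and 415 CPM, and the ratio was -0.03 (-0.31 to 0.25) and 0.03 (-0.23 to 0.30), beside -0.19 and -0.14 in all other nuclei. The 36 inflammatory and NF-kB genes gave 1226, 1317, 1201 and 1398 CPM, and the ratio was 0.10 (-0.05 to 0.26) and 0.22 (0.07 to 0.37), beside -0.10 and -0.09 in all other nuclei. Parp14, an interferon-induced enzyme, passed 1.5-fold under the striatum label at 0.81, on 15 and 32 UMIs. Of 9 inflammatory genes measured in each comparison, 1 passed 1.5-fold, Nlrp3, an inflammasome sensor, at 0.89 (0.00 to 1.84) under the striatum label. The 27 genes of the disease-associated state, of which 26 were in the table, had summed ratios of 0.18 (0.11 to 0.25) and 0.14 (0.06 to 0.21), close to those in all other nuclei, 0.15 and 0.13. In this list Trem2 passed upward and Cd63, a late endosomal tetraspanin, downward (-0.63) under the cortex label, and Tyrobp passed upward and Apoe (-0.72) and Spp1 (-0.93), a secreted matrix protein, downward under the striatum label. Tnfrsf1b, a receptor of tumour necrosis factor, was 1 of 21 cytokine receptor genes past 1.5-fold under the striatum label, at 0.96 (0.33 to 1.63), and had 0.28 (-0.36 to 0.93) under the cortex label.

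Genes near the delivered factor were sparse in microglia. The 12 VEGF family genes gave 316, 362, 399 and 345 CPM, against 492 to 565 CPM in all other nuclei. Vegfc itself gave 1, 1, 4 and 0 UMIs in all members, Flt4, which encodes its main receptor VEGFR-3, gave 0, 2, 0 and 1, and Kdr, which encodes VEGFR-2, gave 2, 5, 2 and 1. At these counts no difference was detectable. Nrp1, a co-receptor of VEGFs, gave 68, 105, 102 and 112 UMIs, and its ratios were 0.47 (0.02 to 0.93) and -0.15 (-0.55 to 0.26). Nrp2, the co-receptor of VEGF-C, gave 47, 30, 49 and 54 UMIs, with ratios of -0.80 (-1.52 to -0.11) and -0.14 (-0.73 to 0.45). Flt1 counts of 9, 17, 17 and 13 UMIs lay far below all other nuclei, at 24.4 against 162 CPM.

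The 15 neurotrophic genes summed to 1173, 1075, 942 and 800 CPM. Their ratio was -0.13 (-0.29 to 0.04) under the cortex label and -0.24 (-0.41 to -0.06) under the striatum label, beside -0.07 and -0.06 in all other nuclei. Neuron markers lay lower in the same members, and their part in these ratios was not tested. Bdnf, brain-derived neurotrophic factor, gave 27, 29, 16 and 12 UMIs, and the receptors Ntrk2 and Ntrk3 lay below their level in all other nuclei in every library. Ntrk3 passed 1.5-fold downward under the striatum label at -0.79 (-1.30 to -0.29), and Pdgfb, a platelet-derived growth factor that was 3.06-fold or more above all other nuclei, passed under the cortex label at -0.61 (-1.11 to -0.11). Pdgfb under the striatum label had 0.08 (-0.40 to 0.55).

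Across all 16 lists of microglial function, 6 genes of 187 measured were higher and 3 lower under the cortex label (3.21% and 1.60%), and 7 higher and 6 lower under the striatum label (3.74% and 3.21%). None of 182 genes measured in both comparisons passed 1.5-fold the same way in both. Over all genes that share was also small, since 36 of 5866 (0.614%) were higher and 43 (0.733%) lower in both, and the latter were 21 without called doublets.

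The genes that did pass in both comparisons were of mixed kinds. The higher ones, named by the smaller of their 2 ratios, were Gm42372, Unk, Mrps21, Pepd, Bola2, Rtl8b, Tceal3, Ccdc107, Tprkb, Lsm1, Rex1bd and Cenpc1. Mrps21, a protein of the mitochondrial ribosome, gave 16, 47, 14 and 32 UMIs, with ratios of 1.40 (0.55 to 2.32) and 0.91 (-0.03 to 1.93), and Pepd, a dipeptidase that frees proline, gave 14, 36, 21 and 47 UMIs, with ratios of 1.21 (0.28 to 2.21) and 0.88 (0.11 to 1.70). Unk, which encodes an RNA-binding protein, gave 21, 52, 15 and 36 UMIs, with ratios of 1.15 (0.40 to 1.96) and 0.98 (0.08 to 1.96). In all other nuclei the ratios of Unk and Pepd were between -0.11 and 0.05, whereas those of Bola2 were 0.33 and 0.51, of Rtl8b 0.26 and 0.38, and of Tceal3 0.29 and 0.35. None of the 12 was a gene set apart in microglia, and their smallest fold over all other nuclei ran from 0.44 to 1.28.

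The 12 lower genes included Grip1, Lhfpl3, Pcdh15, Gm28928, Gpc6, Cacna2d1, Golim4, Trpm3, Fam19a1, Minpp1 and Nin, and all were below their level in other nuclei in 1 or more libraries. Grip1, a scaffold of glutamate receptors at synapses, gave 161, 68.7, 189 and 90.0 CPM, and its ratio was -1.23 (-1.81 to -0.67) under the cortex label and -1.07 (-1.56 to -0.59) under the striatum label, where it was -0.18 without called doublets. Lhfpl3 and Pcdh15, both abundant in oligodendrocyte precursors, had ratios of -0.98 and -1.13, and of -0.90 and -0.96. With no UMI of other cell types allowed in a member, Lhfpl3 turned to 0.18 under the cortex label, as did Gm28928 at 0.61. Under the striatum label Gm28928 turned to 2.66 and Fam19a1 to 0.87. Cacna2d1, a calcium channel subunit of neurons, had -0.83 in each. In all other nuclei the 12 genes had ratios between -0.37 and 0.06. Most of the 12 are known from other brain cells, and the 14 neuron markers lay lower in the same libraries; their part was not tested. Trpm3, a cation channel, gave 98, 64, 452 and 221 UMIs, and 145 of the 452 in striatum AAV-CTRL sat in 1 nucleus, the deepest of all members with 15160 UMIs. Without the deepest nucleus of each library its striatum ratio moved from -1.31 to -0.86. The same nucleus held 52 of the 60 UMIs of Fn1, a matrix protein counted among the monocyte markers, and 4 UMIs of the rule genes.

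**Figure D5:**
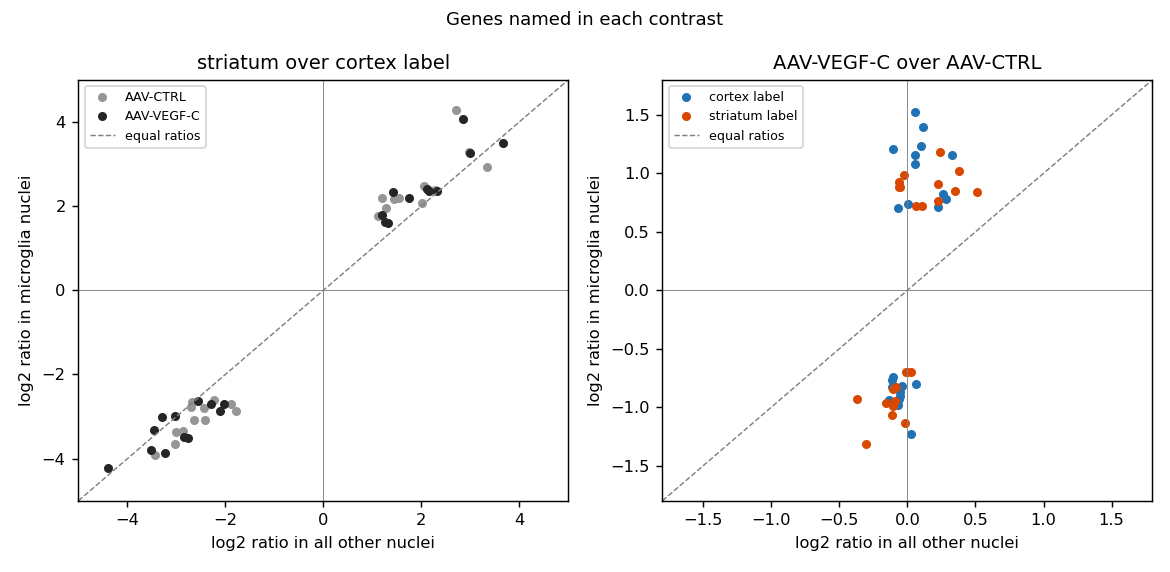
Log2 ratio in microglia against the log2 ratio in all other nuclei for the genes named in the region contrast (left, 23 genes with UMIs in every library, both viruses) and in the AAV contrast (right, 24 genes, both region labels). Region ratios have the same sign in microglia and in all other nuclei. Some lie off the dashed line of equal ratios, such as Synpo2 at 4.28 and 4.08 in microglia against 2.71 and 2.86. The AAV ratios of other nuclei lie between -0.37 and 0.51 for genes past 1.5-fold in microglia.

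The striatum over cortex comparison gave more genes past 1.5-fold than the AAV comparison, and for the named genes the ratios in all other nuclei had the same sign. Complement genes did not share this, at -0.22 and -0.29 in microglia and 0.40 and 0.30 in all other nuclei. In AAV-CTRL, 651 of 6191 genes (10.5%) were higher and 668 (10.8%) lower, in AAV-VEGF-C 661 of 6802 (9.72%) were higher and 699 (10.3%) lower, and 197 of 5977 (3.3%) were higher and 318 (5.32%) lower with both viruses. Oxt, the neuropeptide oxytocin of hypothalamic neurons, gave 0, 0, 76 and 125 UMIs in microglia. With 0 set to a floor of 3 UMIs, Oxt was 24.5-fold (AAV-CTRL) and 37.0-fold (AAV-VEGF-C) higher under the striatum label. These folds leave out counting error. Nrgn, a calmodulin-binding protein of forebrain neurons, gave 842, 1005, 69 and 82 UMIs, with ratios of -3.65 (-4.03 to -3.30) and -3.79 (-4.13 to -3.46) in microglia and -3.02 and -3.51 in all other nuclei. Both are genes of neurons. They were named for differing the same way with both viruses, so their separation of the region labels is a description.

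The other named genes included neuronal and glial ones. Synpo2, Zic1, Calb2, Slc6a11, Zcchc12, Vat1, Ntng1, Kcnj10, St18, Trpm3 and Tppp3 were higher under the striatum label, and Neurod6, Slc17a7, Egr3, Rprml, Chrm1, Itpka, Ppp1r1b, Ttc9b, Lamp5, Npy and Dkk3 lower. Calb2, the calcium buffer calretinin, had 2.93 and 3.49 in microglia and 3.34 and 3.67 in all other nuclei. Neurod6 had -3.92 and -4.23 in microglia and -3.43 and -4.39 in all other nuclei. Markers of oligodendrocytes moved likewise, with 10 genes at 1383, 1463, 3350 and 3240 CPM in microglia and ratios of 1.28 and 1.15, beside 1.24 and 1.36 in all other nuclei. RNA of other cells in the droplets and region-specific expression by microglia cannot be told apart for such genes, and their shares were not tested.

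Of 182 genes of the microglial lists measured with both viruses, 1 was higher and 8 were lower under the striatum label, where 3.3% and 5.32% of all genes were. In the single comparisons 9.29% and 8.42% of the listed genes were lower, near the shares of all genes, 10.8% and 10.3%. The higher one was Scd2, a fatty acid desaturase, and the lower ones were Fscn1, Mef2c, Pld3, Bdnf, Junb, Egr1, Egr3 and Ier5. Egr1, an immediate early transcription factor, gave 417, 374, 68.6 and 61.1 CPM, and its ratio was -2.60 (-3.15 to -2.10) and -2.62 (-3.14 to -2.12), beside -2.34 and -2.40 in all other nuclei. Mef2c had -0.77 (-0.90 to -0.64) in AAV-VEGF-C microglia and -2.53 in all other nuclei of those libraries. Each of these genes moved the same way in all other nuclei. Fcrls, a receptor found in mouse microglia and 51.1-fold or more above all other nuclei, gave 524, 546, 276 and 406 CPM, and its ratio was -0.92 (-1.22 to -0.63) and -0.43 (-0.67 to -0.19). C1qc had -0.65 (-0.88 to -0.42) and -0.56 (-0.76 to -0.37). These were lower under the striatum label with either virus, although Fcrls passed 1.5-fold in AAV-CTRL and not in AAV-VEGF-C, a difference that was not tested, while Cx3cr1 had 0.00 (-0.15 to 0.15) and 0.03 (-0.10 to 0.17).

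The genes that varied most among members of a library were mostly genes of other cells. For 2865 genes with 40 UMIs in each library, the variance over nuclei was divided by that of random counts at the same depths. The median of the smallest of the 4 ratios was 0.985, close to counting noise, and 53 genes were over 2 in all libraries. The 15 highest included Malat1, Lsamp, Gpc5, Lrrtm4, Pcdh9, Pde4b, Rbfox1, Nlgn1, Kcnip4, Galntl6, Nrxn3, Ntm and Trpm3, from 10.3 for Malat1, a nuclear noncoding RNA, to 3.78 for Trpm3. Most of the others are known from neurons, astrocytes and oligodendrocytes, and none is a microglial marker. For Gpc5, abundant in astrocytes, the upper 10% of the cortex AAV-CTRL members held 88.8% of the UMIs. Microglial genes varied less: the smallest ratio was 1.44 for Cx3cr1, 1.38 for C1qa and 1.81 for Ctsd, a lysosomal protease.

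Border macrophages, the myeloid cells of the meninges and vessel walls, are the cells most like microglia. There were 118 nuclei with at least 4 UMIs of Mrc1, F13a1 and Cd163 that met the other limits, of which 65 came from striatum AAV-CTRL. Both kinds were chosen by their own counts, so the values, over the libraries together, are a description. Apoe gave 324 CPM in microglia and 4173 CPM in macrophages, a ratio of -3.69 (-3.84 to -3.54). Stab1, a scavenger receptor, gave 147 and 1512 CPM, and Cd74 gave 48.3 and 494 CPM. These 3 genes were higher in macrophages. Abcg1, a cholesterol exporter, gave 66.1 CPM in microglia and 31.2 CPM in macrophages on 6 UMIs, a ratio of 1.08 (-0.07 to 2.55). Cx3cr1 gave 1465 and 249 CPM and Sall1 181 and 5.20 CPM, both higher in microglia. C1qa, at 934 and 754 CPM, and Spi1, at 201 and 140 CPM, differed less, with ratios of 0.31 (0.07 to 0.56) and 0.52 (-0.04 to 1.14). Of 12 border macrophage markers, only Stab1 and Dab2 reached 40 UMIs in microglia, Pf4 and Ms4a7 were at 0, and the 12 together gave 199, 191, 193 and 182 CPM.

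Markers of other blood cells were rare in microglia and a single nucleus set the level of monocyte genes in 1 library. The 8 monocyte markers gave 44.0, 48.1, 148 and 39.7 CPM, and the higher level in striatum AAV-CTRL held 80 UMIs of which 52 were the Fn1 of the deepest nucleus. Ccr2, a chemokine receptor of monocytes, gave 4, 12, 1 and 4 UMIs and Ly6c2 none. The 12 lymphocyte markers gave 18.3 to 36.4 CPM with Cd3e, Cd3d and Cd3g at 0, and the 10 neutrophil markers gave 2, 5, 19 and 4 UMIs. Astrocyte markers, 9 genes, gave 1596, 1654, 1705 and 972 CPM, and endothelial markers, 9 genes, gave 119, 129, 239 and 107 CPM. Both lists were lower in AAV-VEGF-C under the striatum label, with ratios of -0.81 (-0.96 to -0.66) and -1.16 (-1.60 to -0.73), beside -0.27 and -0.15 in all other nuclei, and their part in the striatum ratios above was not tested.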

How the data were processed

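Brain nuclei were profiled by droplet-based single-nucleus RNA-seq. The deposited matrices hold UMI counts per gene and barcode, not normalized, made by the authors with Cell Ranger, 5.0.1 per the file headers and 5.1.1 per the submitters' processing notes, which also name mm10. The authors tested nuclei as replicates, which was not done here.

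Counts of 31053 genes over 4 libraries were summed over members (pandas 2.3.3, scipy 1.17.1). A gene was measured with at least 40 UMIs over the libraries compared. No group comparison carries a test, since each group is 1 library. Intervals are exact, Clopper-Pearson for shares and conditional binomial for ratios, at 95%, and cover counting error only; a count of 0 was set to a floor of 3 UMIs. The fold and interval steps were tested on simulated data. Doublets were called with Scrublet (scanpy 1.11.5, expected rate 8%) and kept, except in an alternative.

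Members and gene lists were chosen with earlier results of these data known. Named were the 25 genes with the largest smallest fold over all other nuclei, up to 12 genes each way past 1.5-fold in both comparisons of a contrast, the 15 most variable genes and members of the lists; some items are not reported here. Alternatives were TMM factors (edgeR 4.0.16), 6 rule UMIs, 1 or 100 UMIs per gene, 8-fold, no UMI of other cell types, thinning and doublets left out. Chosen after seeing the data were leaving out the deepest nucleus of each library, barcodes found in 2 libraries, and nuclei with 5 or more class II UMIs. Promoter windows are from RefSeq and gene positions from GENCODE (GRCm38).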

Additional observations from a re-analysis of the deposited data

How the results depend on the processing

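The labels give no replicate numbers to pair. An additive fit of virus and region over the 4 libraries, which would leave 1 residual degree of freedom, was not run. TMM factors left all 44 summary values within their limits, as did leaving out the deepest nucleus of each library or barcodes found in 2 libraries for all 46. The share ratio of the viruses was 0.50 to 0.66 under the striatum label and -0.06 to 0.03 under the cortex label over the alternatives.

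Counts of genes past 1.5-fold moved with the filters. For the viruses under the cortex label, 185 were higher and 169 lower with no UMI of other cell types allowed, 59 and 60 with a minimum of 100 UMIs per gene, and 3682 and 3686 with a minimum of 1 UMI. Under the striatum label these were 243 and 230, 76 and 141, and 3723 and 4282, and under both labels 23 and 21, 7 and 12, and 843 and 1006. Without called doublets 21 were lower under both. For the regions, no UMI of other cell types gave 270 higher and 364 lower in AAV-CTRL, 316 and 382 in AAV-VEGF-C and 59 and 161 in both, and 100 UMIs per gene gave 182 and 254, 198 and 285, and 68 and 158. An 8-fold limit over all other nuclei left 358 genes.

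With no UMI of other cell types, the striatum ratios of the viruses were 0.21 for homeostatic genes, 0.28 for lineage transcription factors, 0.36 for complement and 0.19 for lysosome genes, and the cortex ratios were -0.53 for interferon and 0.47 for antigen presentation genes. Without called doublets the striatum ratios were 0.065 for homeostatic, 0.085 for lineage, 0.061 for lysosome, 0.026 for cytokine receptor and 0.13 for oxidative phosphorylation genes. The cortex ratio of antigen presentation genes was 0.38 with 6 rule UMIs and 0.37 without the nuclei rich in class II UMIs. With no UMI of other cell types, Lhfpl3 (0.18) and Gm28928 (0.61) reversed under the cortex label and Gm28928 (2.66) and Fam19a1 (0.87) under the striatum label. Fewer nuclei and genes enter under the stricter filters; the cause was otherwise not tested. The median interval of a gene spanned 1.27 in each comparison of the viruses, which limits statements on single genes.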
